A study of Mus musculus with 12 samples.

Results

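The MYC, MAX and MXD network is a set of transcription factors that bind the same DNA element as dimers with a common partner, and it is described here in mouse embryonic stem cells (ESCs) with and without Dgcr8, a protein needed to make nearly all microRNAs (miRNAs). Its members were taken from a list of gene symbols matched to the gene identifiers of the deposited count table, a rule that uses no measured value. The list holds 10 genes, Myc, Mycn, Mycl, Max, Mxd1, Mxi1, Mxd3, Mxd4, Mnt and Mga, out of 51467 genes in the table, and all 10 were among the 14033 genes that were tested. Each tested gene had at least 3 CPM, its counts scaled to a common library size of 1e+06, in at least 3 libraries. Myc met that rule only through its 4sU-labeled libraries, since none of its 6 total RNA libraries reached 3 CPM, and Mxd4 met it in 9 of 12 libraries.

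Wild-type (WT) ESCs, line V6.5, were compared with a Dgcr8 KO line. The title and genotype of the KO samples name Dgcr8, while their source name reads DDX8KO. Both lines were kept in the naive state with LIF and the inhibitors PD0325901 and CHIR99021 (together called 2i) in serum-containing Knockout DMEM. All cultures, controls included, received 500 uM 4-thiouridine (4sU) for 30 minutes, so RNA made during the pulse could be biotinylated and pulled down, and the RNA of a culture was split into a total fraction and a 4sU-labeled nascent fraction. There were 4 groups of 3 libraries, namely WT 4sU, WT total, Dgcr8 KO 4sU and Dgcr8 KO total. Each genotype was 1 line, so a difference between genotypes and a difference between lines cannot be told apart, and no label says whether the 3 replicates of a group were separately derived cultures.

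MYC proteins activate growth genes, among them genes of ribosome production, nucleotide synthesis and the cell cycle. They bind DNA as dimers with MAX, usually at the E-box CACGTG. The MXD proteins and MNT also pair with MAX, bind the same element and recruit SIN3 and histone deacetylases, so they oppose MYC, while MGA brings MAX into the Polycomb complex PRC1.6, which silences germline genes. In mouse ESCs, Myc and Mycn are known for their part in self-renewal, and MYC mRNAs are known to be short-lived.

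The libraries held between 4593914 and 9295245 counts in genes. Dgcr8 itself, the targeted gene, had 101.6 ± 9.3 CPM in WT total RNA and 33.27 ± 1.09 CPM in KO total RNA (mean ± SD, n = 3), and its log2 change was -1.60 (SE 0.0848, limma adjusted p = 6.63e-17). All 8 ESC markers were detected in all 4 groups. They summed to 4950 to 5040 CPM in WT and 4840 to 4920 CPM in KO total RNA. In nascent RNA they summed to 5810 to 5970 CPM in WT and 6520 to 7160 CPM in KO. In total RNA 3 of the 8 rose and 5 fell, where 27.2% of all tested genes rose and 36.7% fell. In nascent RNA 6 rose and 1 fell, where 28.3% of all tested genes rose and 28% fell. None of the 6 fibroblast feeder markers passed the filter on low values, and their sum was at most 3.76 CPM. The 5 primed epiblast markers, of which 3 were tested, summed to 132 to 144 CPM in WT and 89.3 to 93.4 CPM in KO total RNA, but to 66.5 to 70.8 CPM in WT and 73.4 to 82.6 CPM in KO nascent RNA. Dnmt3b and Pou3f1 fell and Otx2 rose in both fractions, but Pou3f1 was tested only because of its WT level. The 5 neural markers, of which 2 were tested, summed to 56.5 to 68.9 CPM in WT and 25.4 to 29.5 CPM in KO total RNA, and overlapped in nascent RNA, at 46.6 to 53.6 CPM and 41.9 to 47.7 CPM. Tubb3 carried the total RNA difference, at 47.5 ± 4.39 CPM in WT and 10.9 ± 1.23 CPM in KO, while Sox1 was at 12.2 ± 2.37 and 14.5 ± 0.673 CPM and rose in nascent RNA (log2 0.41, adjusted p = 0.00178). Only 1 of the 5 primitive endoderm markers was tested, Gata4. Together they summed to 8.43 to 10.4 CPM in WT and 6.66 to 8.08 CPM in KO total RNA, and overlapped in nascent RNA. Gata4 rose in nascent RNA (log2 0.52, limma adjusted p = 0.00585), while Dab2, too low to test, had 13 to 20 counts in the WT total libraries and at most 1 in the KO total libraries. The part of these marker differences in the results was not tested. In bulk RNA, fewer cells expressing a gene and less of its RNA per cell cannot be told apart.

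Because Dgcr8 KO cells lack most miRNAs, the miRNA seeds of ESCs and their matches in the network are shown first. The seed, bases 2 to 8 of a mature miRNA, is in capitals, and sequences are from RefSeq (GRCm38.p6). The miR-290 and miR-302 clusters make ESC-enriched miRNAs, most of which share the seed AAGUGCU, and the miR-17 family has the same letters shifted by 1 base. The let-7 family is shown as the miRNAs that rise when ESCs differentiate.
miR-294-3p: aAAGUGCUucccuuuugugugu
miR-295-3p: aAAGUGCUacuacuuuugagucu
miR-302b-3p: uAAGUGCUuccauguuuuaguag
miR-17-5p: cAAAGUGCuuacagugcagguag
let-7a-5p: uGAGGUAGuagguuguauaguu

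A match to the AAGUGCU seed is AGCACTT or GCACTTA on the mRNA strand, and the longest annotated 3′ UTR of each gene (GENCODE M21, mm10) was searched for these letters. Of the 10 members, 6 held a match, namely Mycn, Mxd1, Mxd3, Mnt, Mga and Mxi1, and Myc, Mycl, Max and Mxd4 held none in that window. Of all 11809 tested genes with a protein-coding 3′ UTR, 21.3% held a match, but long 3′ UTRs hold more of them. Among genes whose 3′ UTR length was close to the member's, the share was 53.1% for Mga, with 4616 bases, 47.1% for Mxi1, 44.4% for Mxd1, 33.5% for Mnt, 14.2% for Mycn, with 913 bases, and 7.66% for Mxd3, with 615 bases. Matches are in capitals below, and the strand is that of the mRNA.
Mycn, chr12:12936129-12936157, minus strand: ctgcaccttagAGCACTTtgaaatacctc
Mga, chr2:119965439-119965468, plus strand: cttgtaattccAGCACTTAgaagactaaag
Mga, chr2:119966741-119966770, plus strand: gacaggtcatcAGCACTTAacctttcctgt
Mga, chr2:119969089-119969117, plus strand: cttttgaagaaAGCACTTttaagggtcct
Mxi1, chr19:53372863-53372891, plus strand: tagttacgttcAGCACTTgtctcatttaa
Mxi1, chr19:53373410-53373438, plus strand: gtgcctgcaaaAGCACTTcgccgttgctt
Mxd1, chr6:86648911-86648939, minus strand: tgtattcttagAGCACTTgacaggctaac
Mxd3, chr13:55325589-55325617, minus strand: gaatttcatgtAGCACTTggccctgcttt
Mnt, chr11:74845647-74845675, plus strand: tccatgtaataAGCACTTgcctggaataa

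The Mycn match was followed by another T, so it was also a match (GCACTTT) to the miR-17 seed, as was the last of the Mga matches. Mycn also held 2 matches (TACCTCA) to the let-7 seed, and 1 of them began 12 bases past the start of the match above. Matches to let-7 (CTACCTC or TACCTCA) were found in 6 members, Mycn, Mycl, Mxd1, Mxd4, Mnt and Mga, against 17.3% of all 3′ UTRs searched. Among genes of similar 3′ UTR length the share was 41.9% for Mga, 34.6% for Mxd1, 29.6% for Mxd4, 27% for Mnt, 22.2% for Mycl and 11.1% for Mycn. These matches are a description of letters and say nothing of binding.

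The MYC activators changed in opposite directions without Dgcr8. Mycn, the main family member in these ESCs, rose and Mycl fell in both total and nascent RNA, and Myc fell in nascent RNA. Values are in CPM of the scaled library size, which do not correct for gene length.

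Mycn, on chromosome 12 from 12936093 to 12941914 (mm10, minus strand), was at 110.2, 101.1 and 103.8 CPM in the WT total libraries and at 223.3, 233 and 215.5 CPM in the KO total libraries. In 4sU-labeled RNA it was at 281.8, 271.5 and 298.7 CPM in WT and at 641.3, 561 and 550 CPM in KO. The groups did not overlap in either fraction, and each KO library was above each WT library. The log2 change was 1.10 in total RNA (SE 0.0641, adjusted p = 8.19e-16) and 1.04 in nascent RNA (SE 0.0566, adjusted p = 3.65e-16). Its total over 4sU ratio, used here as the relative mRNA stability, differed between genotypes by 0.06 on the log2 scale (95% interval -0.11 to 0.23, adjusted p = 0.704).

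Mycl, on chromosome 4 from 122995944 to 123002485 (plus strand), was at 47.77, 52.8 and 51.82 CPM in the WT total libraries and at 7.675, 8.564 and 8.516 CPM in the KO total libraries. Its WT 4sU libraries held 54.2, 56.47 and 54.79 CPM and its KO 4sU libraries 14.39, 13.54 and 15.04 CPM. All KO values lay far below all WT values in both fractions. The fall was 6.17-fold in total RNA (log2 -2.62, SE 0.120, adjusted p = 1.57e-18) and 3.83-fold in nascent RNA (log2 -1.94, SE 0.116, adjusted p = 3.44e-15). The drop in total RNA was larger than that in nascent RNA by 0.69 on the log2 scale, a stability difference of -0.69 (95% interval -1.03 to -0.35, adjusted p = 0.00363). No other member had so low a total RNA change, which stood at the 0.841 percentile of all tested genes.

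Myc, on chromosome 15 from 61985391 to 61990374 (plus strand), was seen almost only in nascent RNA. It had 85, 57 and 91 counts in the WT 4sU libraries and 32, 45 and 37 counts in the KO 4sU libraries, which is 13.93 ± 2.14 CPM against 7.342 ± 1.12 CPM. In nascent RNA it fell by 0.92 on the log2 scale (SE 0.183, adjusted p = 7.79e-05), with no overlap between the groups. The total RNA libraries held only 4, 4 and 7 counts in WT and 3, 5 and 3 in KO. At 15 counts against 11, the KO over WT ratio in total RNA was 0.725, with an exact 95% counting interval of 0.301 to 1.69, so a difference was not detectable at this depth (log2 -0.43, adjusted p = 0.501). The interval for its stability difference was just as wide, from -0.67 to 1.65 on the log2 scale.

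**Figure D1:**
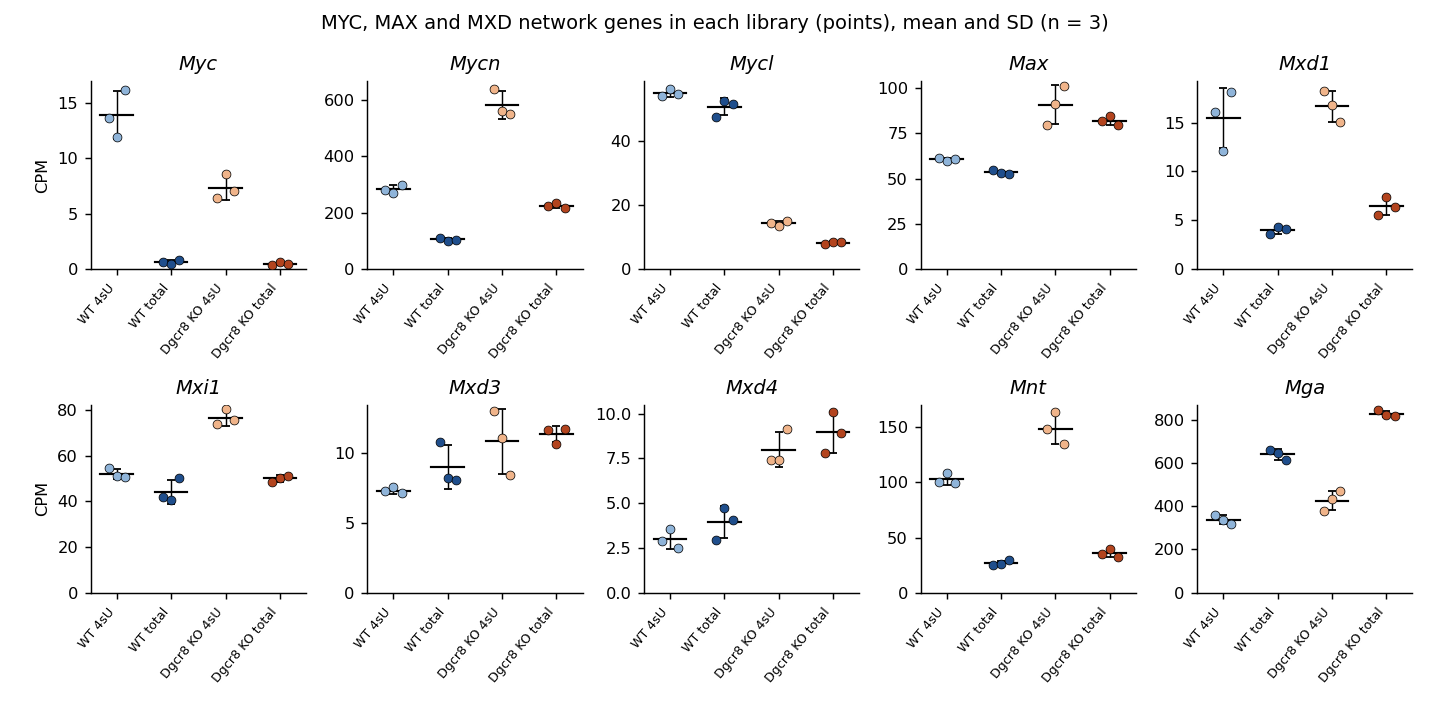
Level of each network gene in CPM (vertical axes, from 0, a scale of its own in each panel) in the 3 libraries of each of the 4 groups; points are libraries, the horizontal line is the mean and the bar the SD. Mycn is above and Mycl below WT in every KO library of the same fraction, and Myc is near 0 in all 6 total RNA libraries.

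Levels of different genes were compared per kilobase of merged exons. On this scale Mycn made up 72.55 ± 1.89% of the summed MYC family level in WT total RNA and 97.02 ± 0.219% in KO total RNA (n = 3 each). Mycl made up 26.94 ± 1.9% in WT and 2.744 ± 0.186% in KO, and Myc 0.5078 ± 0.128% and 0.2338 ± 0.0708%. The per-kilobase ratio of Mycn to Mycl was thus 2.705 ± 0.269 in WT total RNA and 35.47 ± 2.47 in KO total RNA. In 4sU-labeled RNA the Mycn share was 82.97 ± 0.274% in WT and 96.76 ± 0.391% in KO. The sum of the 3 genes was 51.61 ± 0.974 CPM per kilobase in WT total RNA and 82.31 ± 3.2 in KO total RNA, so the family as a whole was at a higher level in KO. For these shares and sums no test was run, but no KO library fell within the WT range.

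**Figure D2:**
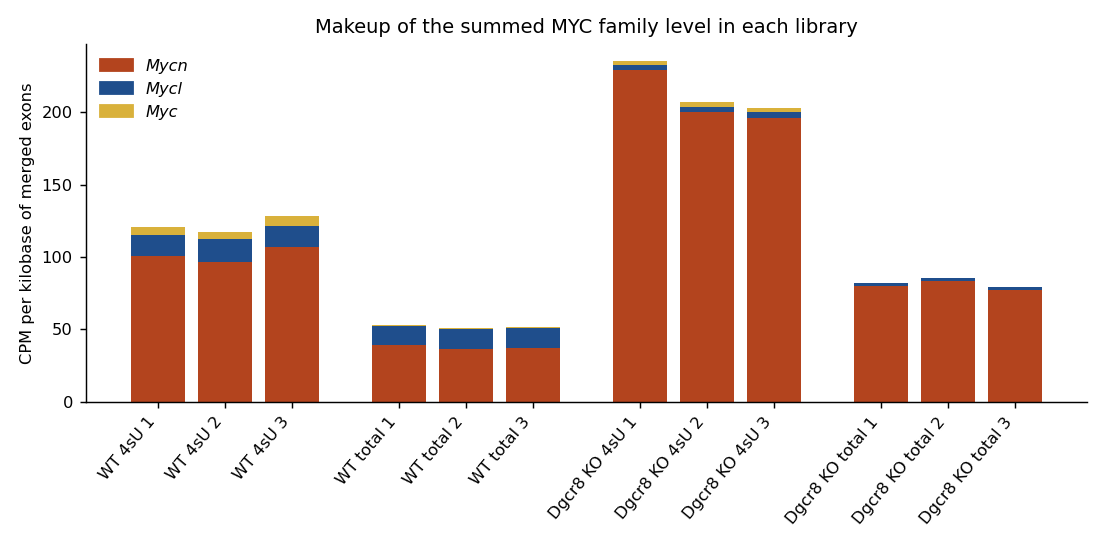
Summed level of Mycn, Mycl and Myc in each of the 12 libraries, in CPM per kilobase of merged exons (vertical axis, from 0), with the part of each gene as a colored segment. Mycl holds 24.83 to 28.49% of the bar in WT total RNA and 2.565 to 2.935% in KO total RNA.

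Max, the common partner of the other proteins of the network, rose in both fractions. It was at 54.49, 53.04 and 52.52 CPM in WT total RNA and at 81.72, 84.73 and 79.67 CPM in KO total RNA, with no overlap. Its 4sU-labeled RNA was at 61.28, 59.82 and 61.02 CPM in WT and at 79.57, 91.37 and 101.1 CPM in KO, again with no overlap. The log2 change was 0.62 in total RNA (SE 0.0734, adjusted p = 7.84e-09) and 0.57 in nascent RNA (SE 0.0794, adjusted p = 3.02e-07), and its stability difference was 0.05 (95% interval -0.17 to 0.27). The summed MYC level per kilobase was 1.894 ± 0.0247 times the Max level in WT total RNA and 1.964 ± 0.0155 times in KO total RNA. The libraries of the 2 groups did not overlap in this ratio, though their means lay close together. In 4sU-labeled RNA the groups did overlap, at 3.834 to 4.111 in WT and 3.935 to 5.79 in KO.

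Of the 4 MXD repressors, Mxd4 and Mxd3 rose in both fractions, Mxd1 in total RNA and Mxi1 in nascent RNA, and the calls on Mxd3 depended on the test and on single libraries. Mxd4, a repressor of low level, was at 2.966, 4.755 and 4.067 CPM in WT total RNA and at 7.788, 10.12 and 8.949 CPM in KO total RNA. It rose by 1.15 on the log2 scale in total RNA (SE 0.203, adjusted p = 9.89e-06) and by 1.42 in nascent RNA (SE 0.269, adjusted p = 4.06e-05), where it had 14 to 18 counts in WT and 37 to 48 in KO.

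Mxd1, which is known to be induced when cells differentiate, was at 3.591, 4.268 and 4.067 CPM in WT total RNA and at 5.531, 7.396 and 6.351 CPM in KO total RNA. The KO values were all above the WT values, and it rose by 0.66 (SE 0.221, adjusted p = 0.0103). In nascent RNA its WT range, 12.13 to 18.14 CPM, covered most of the KO range, 15.04 to 18.19 CPM, and the log2 change was 0.10 (95% interval -0.20 to 0.41, adjusted p = 0.568). The difference between these changes, a stability difference of 0.55, had an unadjusted p of 0.0468 and an adjusted p of 0.170, and so did not pass. Without KO replicate 2 its total RNA change was 0.55 with an adjusted p of 0.0571.

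Mxi1, also known as Mxd2, behaved in the reverse way. Its 4sU-labeled RNA was at 54.52, 51.03 and 50.52 CPM in WT and at 73.77, 80.31 and 75.77 CPM in KO, and it rose by 0.56 on the log2 scale (SE 0.0834, adjusted p = 1.19e-06). Its total RNA was at 42, 40.48 and 50.31 CPM in WT and at 48.54, 50.47 and 51.24 CPM in KO. The highest WT library lay inside the KO range, and the total RNA change of 0.18 did not pass (95% interval 0.01 to 0.34, adjusted p = 0.0578), although it did without WT replicate 3 (0.27, adjusted p = 0.00674). The stability difference was -0.38 (95% interval -0.62 to -0.14, adjusted p = 0.0223), but it did not pass without WT replicate 3, KO replicate 1 or KO replicate 2, where the adjusted p was 0.172, 0.0535 and 0.0825, nor under DESeq2, at 0.147.

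Mxd3, an MXD member tied to dividing cells, was at 8.986 ± 1.55 CPM in WT total RNA and 11.32 ± 0.589 CPM in KO total RNA. WT replicate 1, at 10.77 CPM, lay above the lowest KO library, at 10.64 CPM. The rise of 0.37 on the log2 scale passed in limma (SE 0.154, adjusted p = 0.0374) and not in edgeR's quasi-likelihood test (adjusted p = 0.0573), nor without WT replicate 2, WT replicate 3, KO replicate 1 or KO replicate 3 (adjusted p from 0.0578 to 0.166). In nascent RNA its rise was 0.54 (adjusted p = 0.0204), and it did not pass without WT replicate 1, WT replicate 3, KO replicate 1 or KO replicate 2 (adjusted p from 0.0526 to 0.120).

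Mnt and Mga, the larger MAX partners, rose in both fractions. Mnt, which is made in most cells whether they divide or not, was at 24.98, 26.34 and 29.16 CPM in WT total RNA and at 34.88, 39.18 and 32.48 CPM in KO total RNA, a log2 change of 0.40 (SE 0.102, adjusted p = 0.00102). Its nascent change was 0.53 (SE 0.0724, adjusted p = 2.07e-07), from 102.8 ± 4.82 to 148.9 ± 14.4 CPM. Mga, on chromosome 2 from 119897228 to 119969581 (plus strand), was at 660.1, 647.5 and 611.4 CPM in WT total RNA and at 843, 822.9 and 817.2 CPM in KO total RNA. The groups were well apart, although the change was only 0.37 on the log2 scale (SE 0.0510, adjusted p = 1.26e-07) in total RNA and 0.34 (SE 0.0613, adjusted p = 2.54e-05) in nascent RNA.

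Over the whole network, 8 of 10 members passed the test in total RNA, 7 higher and 1 lower in KO, where 63.9% of all tested genes passed, 27.2% higher and 36.7% lower. In nascent RNA 9 of 10 passed, 7 higher and 2 lower, against 56.3% of all tested genes, 28.3% higher and 28% lower. With a log2 change beyond 1 in either direction as a further limit, Mycn, Mxd4 and Mycl passed in both fractions. These 3 members in total RNA, 2 higher and 1 lower, stand against 17.2% of all tested genes, 9.33% higher and 7.82% lower, and the 3 in nascent RNA against 14.8%, 9.5% higher and 5.27% lower. The KO libraries lay all above or all below the WT libraries for 7 members in total RNA (68.8% of all genes) and for 9 in nascent RNA (59% of all genes). The median log2 change of the 10 members was 0.39 in total RNA, beside -0.09 over all tested genes, and 0.54 in nascent RNA, beside -0.02. The members past the test were 80% of the list in total RNA and 90% in nascent RNA, in a background where most genes passed too. The members higher in KO were 70% of the list in both fractions, and no test was made of the list against other genes.

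**Figure D3:**
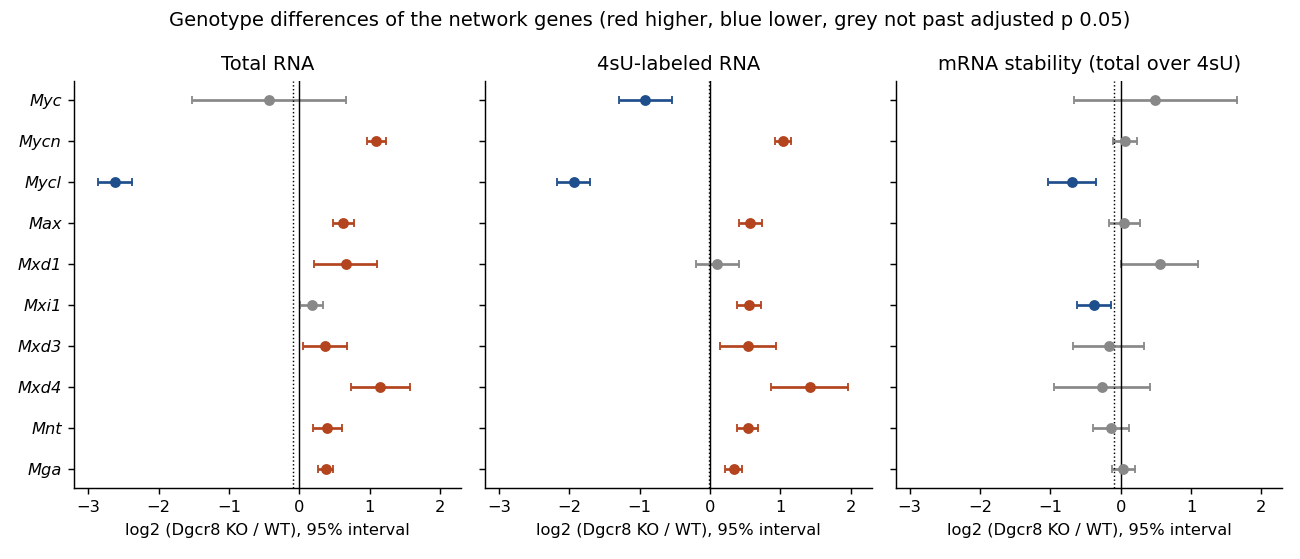
Log2 difference between Dgcr8 KO and WT for each network gene in total RNA, in 4sU-labeled RNA and in the total over 4sU ratio (horizontal axes), with 95% intervals; the dotted line is the median of all tested genes. Mycn, Max, Mxd3, Mxd4, Mnt and Mga are past the test on the right in total and nascent RNA, Mycl on the left, and only Mycl and Mxi1 pass in the ratio.

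The mRNA stability comparison asks whether the total RNA of a gene changed by more or less than its nascent RNA. Of the 10 members, 2 passed, Mycl and Mxi1, both lower in KO, against 16.1% of all tested genes, 11.1% lower and 5.02% higher. The largest difference among those that passed was that of Mycl, so the members did not reach a log2 difference of 1, which 1.76% of all genes did, 0.791% higher and 0.969% lower. The KO cultures lay all above or all below the WT cultures for 4 members, Myc, Mycl, Mnt and Mxi1, and for 33.4% of all genes. At an unadjusted p under 0.05 there were 3 members, the third being Mxd1. The median stability difference of the members was -0.05, beside -0.09 over all tested genes.

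Set beside the seed matches, the 6 members with a match to the AAGUGCU seed had stability differences of 0.06 for Mycn, 0.55 for Mxd1, -0.17 for Mxd3, -0.14 for Mnt, 0.04 for Mga and -0.38 for Mxi1. The 4 members with no match had 0.49 for Myc, -0.69 for Mycl, 0.05 for Max and -0.27 for Mxd4. Neither set lay on one side of 0, and Mxi1, with 2 matches, was among the 2 members that passed with a lower ratio. Over all genes searched, the median stability difference was 0.03 for the 2518 genes with a match and -0.13 for the 9291 genes without. Mga, with the most matches, was at 0.04 with an interval from -0.12 to 0.20.

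The total over 4sU ratio within WT cells is given less the median of all tested genes, as the mean of 3 cultures. A culture here is a 4sU and a total library with the same replicate number. Mnt, at -2.03 ± 0.154, Mxd1, at -2.02 ± 0.359, and Mycn, at -1.52 ± 0.0883, were low, and each of these 3 genes was below the median in all 6 cultures of both genotypes. Myc was at -4.41 ± 0.13 on the log2 scale, but it entered the test only through its 4sU libraries, so a low ratio was a condition of its being tested, and its total RNA rests on 4 to 7 counts per WT library.

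Mxi1 at -0.33 ± 0.205, Max at -0.28 ± 0.0264 and Mycl at -0.21 ± 0.0484 were near the median gene in WT cells. Mxd3 was at 0.19 ± 0.26 and Mxd4 at 0.28 ± 0.32, within their own spread of 0. Mga had the highest ratio of the network, 0.84 ± 0.0339, with all 3 WT cultures at or above the 75.1 percentile. In KO cells Mga was again highest, at 0.97 ± 0.168, and Mycl was at -0.79 ± 0.127 with no overlap with its WT cultures. All 3 WT cultures of Mycn lay below all 3 of Mycl in this ratio.

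**Figure D4:**
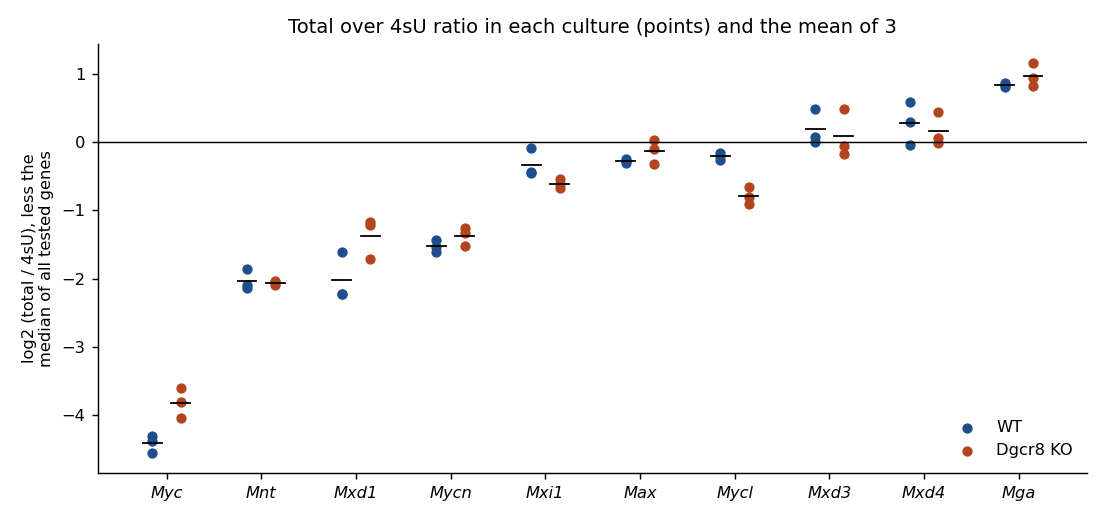
Log2 ratio of total to 4sU-labeled RNA for each network gene less the median of all tested genes in that culture (vertical axis), with 1 point per culture for WT (blue) and Dgcr8 KO (red) and a line at the mean of 3. Mnt, Mxd1 and Mycn are below the median gene in all 6 cultures and Mga is above it in all 6; Myc, between -4.56 and -3.60, was tested only because of its 4sU level.

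Per kilobase, the order of levels in WT total RNA was Mga at 45.91 ± 1.81 CPM per kilobase, Mycn at 37.45 ± 1.68, Max at 27.25 ± 0.521 and Mycl at 13.89 ± 0.729. Below them came Mxi1 at 7.877, Mxd3 at 6.772, Mnt at 5.845, Mxd4 at 1.012, Mxd1 at 0.8519 and Myc at 0.2623. The ranges of Mxi1 and Mxd3, of Mxd3 and Mnt, and of Mxd4 and Mxd1 overlapped, and the other neighbours did not. In KO total RNA Mycn was first at 79.86 ± 3.13, ahead of Mga at 59.42 ± 0.974, and Mycl was eighth at 2.257 ± 0.137, within the range of Mxd4.

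In 4sU-labeled RNA the order was another. Mycn led in WT at 101.3 ± 4.9 CPM per kilobase, followed by Max at 31 ± 0.399, Mga at 24.18 ± 1.54 and Mnt at 22.4 ± 1.05, and the last pair overlapped. Myc, at 5.691 ± 0.877, was level with Mxd3 there. The sum of the 4 MXD genes was 16.51 ± 0.884 CPM per kilobase in WT total RNA and 21.13 ± 0.506 in KO total RNA. The MYC sum over the MXD sum was 3.13 ± 0.123 in WT and 3.898 ± 0.197 in KO, and in 4sU-labeled RNA it was 6.481 ± 0.275 and 7.854 ± 0.433, with no overlap of the libraries in either fraction.

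Most textbook targets of MYC were lower in KO. Of 30 genes that MYC is known to activate, 26 fell, 2 rose and 2 did not pass in total RNA, where 36.7% of all tested genes fell, and their median log2 change was -0.43 beside -0.09 over all genes. In nascent RNA 23 fell and 2 rose, where 28% of all tested genes fell and 28.3% rose. Ccnd2, 1 of the 2 that rose in each fraction, was tested only because of its KO level. Their median there was -0.33, beside -0.02 over all genes. The largest falls in total RNA were in Hspe1, a mitochondrial chaperonin (log2 -0.93, from 132 ± 5.56 to 69.3 ± 4.33 CPM), Odc1, the first enzyme of polyamine synthesis (log2 -0.90, from 174 ± 0.644 to 93.3 ± 2.36 CPM), and Srm, a spermidine synthase (log2 -0.84). The adjusted p was at most 7.51e-12 for these 3 genes. Odc1 also had a lower stability in KO (log2 -0.60, adjusted p = 3.37e-05), as did Wdr12, a ribosome assembly factor (log2 -0.46), while Tfrc, the transferrin receptor, had a higher one (log2 0.50).

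The exceptions were Ccnd2, a D-type cyclin, and Polr3g, a subunit of RNA polymerase III enriched in ESCs. Ccnd2 had 1 to 4 counts in the WT total libraries and 65 to 79 in the KO total libraries. It met the filter on low values only through its KO libraries, so a higher level in KO was a condition of its being tested. In nascent RNA it had at most 1 count in a WT library and 39 to 55 in KO, so it was at least 16.8-fold higher, taking 3 counts per WT library as the floor. Polr3g rose by 0.33 on the log2 scale in total RNA (adjusted p = 5.34e-06).

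Of 5 genes that MYC is known to repress with MIZ1, 3 rose and 1 fell in total RNA, where 27.2% of all tested genes rose and 36.7% fell, and their median was 0.77 beside -0.09 over all genes. Ndrg1, a stress-induced gene, rose by 1.98 (adjusted p = 3.46e-17), from 13.9 ± 0.973 to 55.2 ± 4.06 CPM, and Gadd45a, a growth arrest gene, by 1.06 (adjusted p = 6.07e-08). Cdkn1a, the cell cycle inhibitor p21, rose by 0.77 in total RNA (adjusted p = 2.31e-08), while its nascent change was -0.16 (adjusted p = 0.0542), and its stability difference of 0.92 passed (adjusted p = 9.62e-07). Ndrg2 fell by 0.81 (adjusted p = 5.34e-05). Stability was lower in KO for Ndrg1 (log2 -0.60, limma adjusted p = 0.00768), the reverse of Cdkn1a, and did not pass for the other 3 genes. In nascent RNA 3 of the 5 rose, Ndrg1, Gadd45a and Cdkn2b, where 28.3% of all tested genes rose.

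The germline genes that PRC1.6 with MGA is known to silence were mostly lower in KO, as far as they could be tested. Of 12 on the list, 8 were tested and 6 fell and 1 rose in total RNA, with a median of -0.72 beside -0.09 over all genes, of which 36.7% fell and 27.2% rose. Taf7l, Tdrkh, Slc25a31 and Tdrd1 were too low to test. Dazl, an RNA-binding protein of germ cells, was at 61.2 ± 1.06 CPM in WT and 26 ± 2.69 CPM in KO (log2 -1.23, adjusted p = 1.27e-13). Stk31 (log2 -2.06, adjusted p = 7.85e-10) and the meiotic axis gene Sycp3 (log2 -1.34, adjusted p = 9.75e-07) fell too. Hormad1, another meiotic gene, rose by 0.86 (adjusted p = 4.32e-10). With only genes at 3 CPM in all 12 libraries kept, 4 of the list were tested and 2 fell.

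The lists of genes that work with the network are read against all tested genes, of which 36.7% fell and 27.2% rose in total RNA. The turnover list was near these shares in both directions. For genes that fell, the SIN3 and histone deacetylase list, the other PRC1.6 genes and the MLX branch were near 36.7% too. Of 11 MYC coactivators 6 fell in total RNA, with Ruvbl2 at -0.54, Ccnt1 at -0.52 and Actl6a at -0.51 on the log2 scale. In nascent RNA only 3 of the 11 fell and 0 rose, where 28% of all tested genes fell and 28.3% rose. Of 9 SIN3 and histone deacetylase genes 4 fell, Rbbp4, Sin3a and Sap30 by the most, and Sin3b rose by 0.14 (adjusted p = 0.0208). In nascent RNA 3 of these 9 rose and 3 fell, and Sap30 was among those that rose (log2 0.38, limma adjusted p = 5.46e-05). Of 9 other PRC1.6 genes 4 rose and 3 fell, and the largest changes were in E2f6, at 0.54 (adjusted p = 1.98e-05), and Tfdp1, at -0.67 (adjusted p = 2.09e-10). Of 9 genes of MYC protein turnover 3 rose and 4 fell, among them the mitotic kinases Plk1 (log2 -1.15, adjusted p = 3.33e-16) and Aurka (log2 -0.92, adjusted p = 6.40e-16). In the MLX branch, a parallel network of sugar-sensing factors, Mlxipl fell by 1.94 on the log2 scale (adjusted p = 2.58e-06) and Mlx and Mlxip did not pass. Mlxipl was at 5.01 ± 1.13 CPM in WT and 1.26 ± 0.177 CPM in KO total RNA, with 8 to 13 counts per KO library. It met the filter only through its WT libraries, so a lower level in KO was a condition of its being tested.

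**Figure D5:**
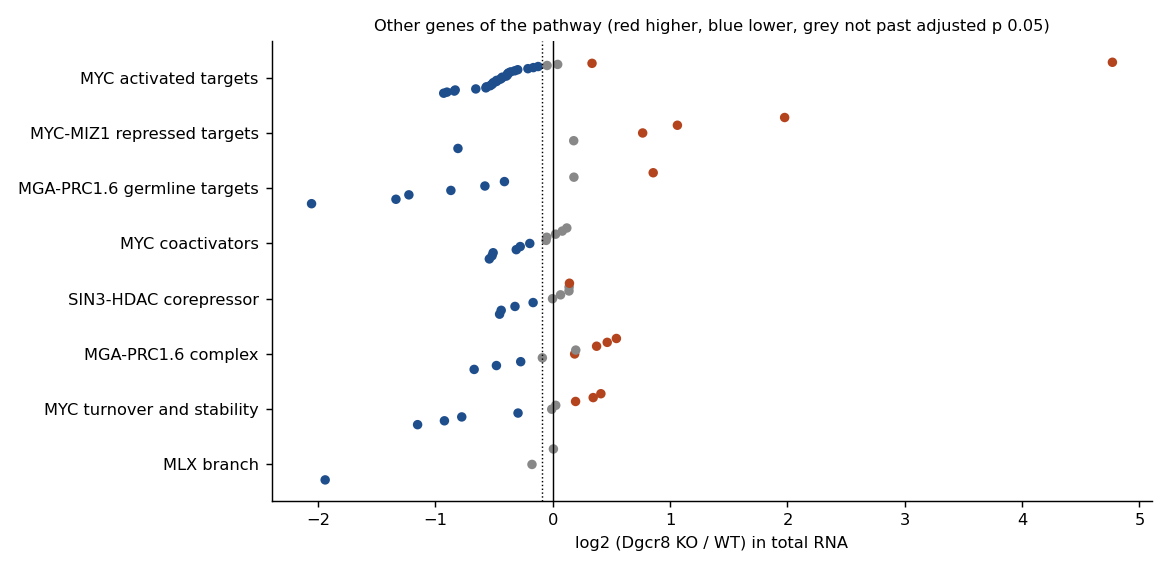
Log2 difference between Dgcr8 KO and WT in total RNA (horizontal axis) for each tested gene of 8 lists of network partners and targets, with 1 point per gene and the median of all tested genes as a dotted line. Of the 30 MYC activated targets 26 lie to the left and past the test. Ccnd2 is the point furthest to the right and was tested only because of its KO level.

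The E-box CACGTG, which reads the same on both strands, was searched in the 300 bases around annotated starts, 250 before and 50 after (RefSeq, GRCm38.p6). It was present for 3 of 9 members with such a window, Max, Mxd4 and Mnt, against 11.9% of 9839 tested genes. Of the 12 germline genes 9 held it, and of the 25 MYC activated targets with a window 7 did, 28%. The member matches are shown because the proteins of the network bind these letters.
Max, chr12:76962235-76962262, minus strand: gtgagcccggtCACGTGttagggggccg
Mxd4, chr5:34187913-34187940, minus strand: ggctgggccacCACGTGctgttgctaag
Mnt, chr11:74830790-74830817, plus strand: cccacccaagcCACGTGtgcgcgcgcgg

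Max, Mxd4 and Mnt all rose in total and nascent RNA, and so did Mycn, Mxd3 and Mga, whose windows did not hold the letters. Mycl, which fell, had none either.

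As a description over the 12 libraries, the genes whose log2 CPM was most like that of Mycn were Sall1, a zinc finger transcription factor, with a Pearson r of 0.9949, Plpp3, a lipid phosphatase, with 0.9947, and Hs6st1, a heparan sulfate sulfotransferase, with 0.9946. For Myc they were D3Ertd254e at 0.9962, Tada2b, a histone acetyltransferase adaptor, at 0.9940 and Gm32699 at 0.9934. The 12 libraries fall into 4 groups, and the points of these correlations share their fraction and their line.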

How the data were processed

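Stranded total and 4sU-labeled RNA of WT and Dgcr8 KO ESCs was sequenced by the authors as 50-base single-end reads. They describe rRNA depletion for the total RNA, and biotinylation and pulldown for the 4sU-labeled RNA. Per the labels' processing notes they used cutadapt 1.14, STAR 2.5.3a and featureCounts 1.5.3 with mm10, and they deposited raw counts per gene (GENCODE M14 without rRNA) together with gene lengths.

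From the deposited counts, genes with at least 3 CPM in at least 3 libraries were kept. They were scaled by TMM and fitted with limma 3.58.1 (voom, 4 group means, edgeR 4.0.16 for scaling, R 4.3.3), and p-values were adjusted by Benjamini-Hochberg over all 14033 genes. Passing means an adjusted p under 0.05. Stability is the interaction of genotype and fraction. CPM uses TMM-scaled library sizes, and per-kilobase levels use the deposited merged exon lengths. Gene symbols matched 51274 of 51559 identifiers, and the 92 spike-in rows, with 1 count in all, were left out. Each library held 4593914 to 9295245 counts, intervals on counts cover counting error only, and p-values measure the spread between these replicates, which may be technical. On simulated counts, 96.9% of 2-fold changes in total RNA and 73.5% of 2-fold stability changes were recovered among 13232 genes. Of 2-fold changes in nascent RNA, 91% were recovered among 13222 genes. False calls numbered 15 in total RNA, 16 in stability and 11 in nascent RNA. The simulation used the same spread for every gene, not estimated from these data, so these shares need not hold for members with few counts.

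The members, the lists and the rule for named genes were chosen with earlier results of these data known. All members were named; of each list up to 3 genes that rose and 3 that fell most in total RNA and up to 2 each way in stability; and the 3 genes most like Myc and Mycn. Alternatives were edgeR's quasi-likelihood test, DESeq2 1.42.0, limma-trend, other scalings, other filters, a replicate block and leaving out each replicate. Samples with the same replicate number did not deviate together between genotypes (r from -0.0898 to 0.0822 within a fraction). Between the 4sU and total libraries of the same number, r was also low, from 0.0416 to 0.116 in WT and from 0.0181 to 0.0465 in KO. The pairing of 2 libraries into 1 culture therefore rests on the shared numbers.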

Additional observations from a re-analysis of the deposited data

Results flagged for a closer look

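The genotype effect on 2 members differed between the fractions by the interaction test in limma. For Mycl it was a log2 change of -2.62 in total RNA and -1.94 in nascent RNA, a difference of -0.69 (adjusted p = 0.00363). For Mxi1 it was 0.18 in total RNA and 0.56 in nascent RNA, a difference of -0.38 (adjusted p = 0.0223). Groups of 3 libraries were too small to look for single outlying libraries.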

How the results depend on the processing

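Over 30 values of the members, the test was repeated under other tools, scalings, filters and blocks and without each replicate, which gave 454 values. Of these 423 kept both direction and side of the threshold, and 9 of the 30 results had any that did not. Mycn, Mycl, Max, Mxd4, Mnt and Mga kept their direction and an adjusted p under 0.05 in total and nascent RNA under all of them. Myc did so in nascent RNA, except that Myc and Mxd4 were not tested when 3 CPM in all 12 libraries was required. The further limit of a log2 change beyond 1 was not always kept. Over the alternatives the nascent change of Mycn ranged from 0.98 to 1.10 and the total RNA change of Mxd4 from 0.99 to 1.29. Signs turned only in values that did not pass: without 1 replicate, stability ranged from -0.0051 to 0.12 for Mycn, -0.043 to 0.15 for Max and -0.064 to 0.11 for Mga, and the nascent change of Mxd1 from -0.042 to 0.22. The number of members past the stability test was 1 in place of 2 (Mycl alone) under DESeq2, RLE scaling, upper-quartile scaling and no filter on low counts, and 1 to 2 without 1 replicate. The rise of Mxd3 in total RNA was lost under edgeR, DESeq2, limma-trend, no filter and 4 of 6 left-out replicates, and the change of Mxi1 in total RNA passed under RLE, upper-quartile and library-size scaling, with 3 CPM in all 12 libraries and without WT replicate 3. The germline genes lower in total RNA numbered 2 in place of 6 with 3 CPM in all 12 libraries, where fewer were tested. The causes of these changes were not tested, apart from the genes that a filter removed.

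With the replicate number as a block, 7 members passed in total RNA (8 without it), 9 in nascent RNA and 2 in stability, and Mxd3 in total RNA was at 0.33 (adjusted p = 0.0566). With the culture as a block, 2 passed in stability, and the total and nascent comparisons could not be fitted because genotype does not vary within a culture. The numbers are shared labels and were not shown to pair the samples. At 3 to 7 counts per library, the total RNA of Myc is limited by depth.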
